A study of Homo sapiens with 9 samples.

Results

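The transcriptome described here is that of THP-1 cells given only the solvent of lupeol, a plant triterpene. It rests on the 3 control libraries of a series of 9, chosen by their label as the solvent group. THP-1 is a human suspension line from an acute monocytic leukaemia, and the cells were grown in RPMI-1640 with foetal bovine serum. RNA was taken at 48 h. The solvent itself is not named in the labels, no library of untouched cells is labelled, and the 6 lupeol libraries were not used. One control column has a heading of its own and is called control 1. The other 2 share 1 heading, so they carry no number and are called control A and control B. The labels do not say whether the 3 libraries came from separate cultures, so every spread given here may be technical.

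Monocytes arise from granulocyte-monocyte progenitors under a few transcription factors, above all PU.1 (gene SPI1), C/EBP proteins and IRF8. Progenitors fill azurophil granules with serine proteases, and these genes are shut down as monocytes mature. THP-1 is known to carry a fusion of KMT2A with MLLT3. Such fusions are known in leukaemia for holding HOXA genes active together with the cofactor MEIS1.

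Total counts per library were 26134744 in control 1, 28880750 in control A and 27153335 in control B. Levels are given as TPM, transcripts per 1000000 transcripts, computed here from the deposited counts and gene lengths. Values for a gene are listed in the order control 1, control A, control B. A gene was called on at 1 TPM or more in every library, off at under 0.1 TPM in every library, and low otherwise. Of 67927 genes with a value, 21.6% were on, 18.7% low and 59.7% off. These include 6395 genes on alternate or patch scaffolds, of which only 16 had a count in any control, so they raise the share off. Of 19894 protein coding genes, 11631 (58.5%) were on, 17.3% were low and 24.2% were off, and these shares are the background for every list below. Control B stood apart from the other libraries in the spread between libraries, as described at the end, and leaving out any 1 library gave 11732 to 11789 protein coding genes on.

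Among the protein coding genes that were on, the median level was 27.0, 26.7 and 26.6 TPM in the 3 libraries. A mean of at least 100 TPM was reached by 1865 of them and of at least 1000 TPM by 85. FTL, the ferritin light chain that stores iron, was the highest, with 34037, 34958 and 28874 TPM. SRGN, the proteoglycan that packs granule proteins, followed with 10896, 10810 and 12580 TPM. Actin and its regulators came next. ACTB stood at 10919 ± 436 TPM (SD, n = 3), CAP1, a cyclase-associated actin regulator, at 9691 ± 862 TPM and TMSB4X, which binds actin monomers, at 7857 ± 857 TPM. The RNA-binding protein gene YBX1 was at 8359 ± 299 TPM. Secreted and lysosomal products were also among the 20 highest. They include CHI3L1, a chitinase-like glycoprotein, at 5361 ± 522 TPM, PPT1, a lysosomal thioesterase, at 5234 ± 304 TPM, and CLEC11A, a secreted lectin, at 3467 ± 611 TPM. The peroxidase gene GPX1 (4756 ± 198 TPM), the carbonic anhydrase CA2 (3962 ± 465 TPM), HSP90AB1, ACTG1, RPS12 and RPS2 were in the same group. The remaining places were held by the protease genes ELANE, PRTN3 and AZU1 and by the mitochondrial pseudogene copies MTND2P28 and MTATP6P1, both described below. The 20 highest genes held 14.6%, 14.6% and 13.7% of all TPM.

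Promoters of granule protein genes are shown first, because these tissue-restricted genes stood among the highest of all. Each sequence runs from 250 bases before to 50 bases after the RefSeq gene start on GRCh38.p14. Capitals mark GAGGAA, the core that PU.1 is known to bind, and TTGCNNAA, a C/EBP motif, each searched on both strands, so that TTCCTC and TTNNGCAA also appear. ELANE and SRGN also reached 1000 TPM but were missing from the set of RefSeq promoters used. The 4 granule genes of the list with at least 1000 TPM and an entry in that set are PRTN3 (chr19:840749-841048, plus strand), AZU1 (chr19:827587-827886, plus strand), CTSG (chr14:24576201-24576500, minus strand) and RNASE2 (chr14:20955237-20955536, plus strand).
PRTN3: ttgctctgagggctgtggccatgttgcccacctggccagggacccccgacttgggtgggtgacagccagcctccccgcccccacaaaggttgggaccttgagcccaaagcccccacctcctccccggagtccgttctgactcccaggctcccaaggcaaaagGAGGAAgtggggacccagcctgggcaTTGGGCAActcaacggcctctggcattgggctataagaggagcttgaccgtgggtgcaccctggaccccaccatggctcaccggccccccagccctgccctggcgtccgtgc
AZU1: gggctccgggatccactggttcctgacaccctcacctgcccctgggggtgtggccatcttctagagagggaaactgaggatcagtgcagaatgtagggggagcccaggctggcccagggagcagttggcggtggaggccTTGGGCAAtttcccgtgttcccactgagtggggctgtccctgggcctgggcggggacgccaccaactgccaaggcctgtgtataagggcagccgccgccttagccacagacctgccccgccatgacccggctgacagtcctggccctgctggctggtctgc
CTSG: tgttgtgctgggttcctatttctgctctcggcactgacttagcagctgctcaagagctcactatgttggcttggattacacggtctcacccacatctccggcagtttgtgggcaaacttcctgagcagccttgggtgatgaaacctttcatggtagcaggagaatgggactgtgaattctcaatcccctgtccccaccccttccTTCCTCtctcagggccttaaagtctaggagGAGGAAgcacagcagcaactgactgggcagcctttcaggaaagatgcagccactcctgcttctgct
RNASE2: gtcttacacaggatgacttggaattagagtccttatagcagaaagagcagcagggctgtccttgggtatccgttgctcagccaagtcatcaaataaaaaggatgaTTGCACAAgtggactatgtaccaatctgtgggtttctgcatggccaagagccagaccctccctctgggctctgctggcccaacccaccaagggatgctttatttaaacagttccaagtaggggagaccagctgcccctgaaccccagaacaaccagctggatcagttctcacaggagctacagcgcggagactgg
Beside them stand a myeloid surface gene, CD33 (chr19:51224830-51225129, plus strand), a HOX gene that was on, HOXA9 (chr7:27165488-27165787, minus strand), and an erythroid factor without a count in any library, KLF1 (chr19:12887152-12887451, minus strand).
CD33: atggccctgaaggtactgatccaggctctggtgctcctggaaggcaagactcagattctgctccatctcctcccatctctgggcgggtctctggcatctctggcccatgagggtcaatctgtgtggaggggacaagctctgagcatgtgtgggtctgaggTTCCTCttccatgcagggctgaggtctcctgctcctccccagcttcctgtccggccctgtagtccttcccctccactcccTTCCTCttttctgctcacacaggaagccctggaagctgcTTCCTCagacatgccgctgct
HOXA9: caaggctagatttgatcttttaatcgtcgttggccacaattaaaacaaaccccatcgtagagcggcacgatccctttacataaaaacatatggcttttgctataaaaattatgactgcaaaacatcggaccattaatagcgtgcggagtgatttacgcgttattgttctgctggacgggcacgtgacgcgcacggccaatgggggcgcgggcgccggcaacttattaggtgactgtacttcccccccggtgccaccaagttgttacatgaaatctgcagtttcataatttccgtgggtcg
KLF1: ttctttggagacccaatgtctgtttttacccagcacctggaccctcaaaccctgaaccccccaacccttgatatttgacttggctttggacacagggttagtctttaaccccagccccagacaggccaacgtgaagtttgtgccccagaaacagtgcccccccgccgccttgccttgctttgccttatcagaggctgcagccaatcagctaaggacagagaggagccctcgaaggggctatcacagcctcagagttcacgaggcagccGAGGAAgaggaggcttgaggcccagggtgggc
PRTN3 holds both motifs in its window, CTSG holds GAGGAA 2 times and CD33 3 times, and AZU1 and RNASE2 hold TTGCNNAA once each. HOXA9 holds neither, and KLF1 holds GAGGAA once although it had no count. Over the 27195 promoters of the table, 27.6% hold GAGGAA and 10.5% hold TTGCNNAA. Of the 15 granule genes with an entry, 8 hold the first and 7 the second. A match describes letters in a window and is not a binding site. CpG content differed widely between these promoters. The observed over expected CpG ratio was 0.273 in PRTN3, 0.143 in CTSG and 1.27 in HOXA9, against a median of 0.846 for protein coding genes that were on and 0.329 for those that were off. The TATAAA motif, searched on both strands, stood in 5.40% of promoters of protein coding genes that were on, in 11.9% of those low and in 20.1% of those off. The highest genes did not follow this order. It stood in 14.3% of promoters of protein coding genes with a mean of at least 1000 TPM, and in 4 of the 15 granule gene promoters.

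The label was checked against its defining markers. SPI1 stood at 929, 899 and 877 TPM, CEBPA at 561, 531 and 422 TPM, HOXA9 at 81.7, 78.5 and 76.0 TPM, and CD33, a sialic acid-binding receptor of myeloid cells, at 57.0, 57.0 and 65.2 TPM. All of these lay far above 1 TPM in every library. MPO, the myeloperoxidase of azurophil granules, was also on but at only 2.43, 3.17 and 3.13 TPM. Monocyte markers were present as well. CD14, the lipopolysaccharide co-receptor, was at 29.8, 49.6 and 27.5 TPM, CSF1R, the receptor of macrophage colony-stimulating factor, at 56.3, 68.5 and 68.4 TPM, and ITGAM at 40.9, 55.2 and 65.1 TPM. CD68 was listed at 0.881, 0.530 and 0.142 TPM, and 85.6% of its exon bases are shared with another gene of the table, so its level is uncertain.

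Of 24 myeloid transcription factors, 22 were on and none was off. SPI1 was the highest, and IRF8, a factor of monocyte and dendritic cell fate, followed at 676, 703 and 517 TPM. CEBPD stood at 480, 442 and 432 TPM and EGR1, an immediate-early factor, at 590, 417 and 421 TPM. MYB, which keeps progenitors dividing, was level at 387, 375 and 374 TPM, and GFI1, a repressor that granulocyte development needs, at 372, 350 and 354 TPM. Factors of early progenitors and of mature monocytes were thus on side by side, with GATA2 at 21.6 to 24.7 TPM and KLF4 at 40.9 to 67.3 TPM. The members that were low were IRF4 (0.216, 0.146 and 0 TPM) and ERG (0.168, 0.246 and 0.364 TPM).

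Factors of other lineages were mostly low or off. Of 5 erythroid and megakaryocyte factors, only NFE2 was on, at 6.85, 8.25 and 4.54 TPM. KLF1 had no count, and GATA1 was at 0.106, 0 and 0 TPM. Of 11 lymphoid factors, 4 were on. They were POU2F2 (29.9, 29.5 and 41.2 TPM), PAX5, the factor of B cell identity (18.2, 21.1 and 17.4 TPM), TCF7 (4.26 to 5.21 TPM) and EOMES (1.22 to 3.85 TPM). The B cell factors EBF1 and POU2AF1 were low and off. Of 16 factors of non-blood tissues, 3 were on. The mesenchymal factor TWIST1 was high at 116, 90.9 and 115 TPM. The glial factor OLIG2 stood at 54.4, 48.6 and 81.4 TPM and the epithelial factor TP63 at 6.54, 5.60 and 9.79 TPM. SOX2, MYOD1, FOXA2, HNF4A, GATA4 and NKX2-1 had no count in any library.

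**Figure D1:**
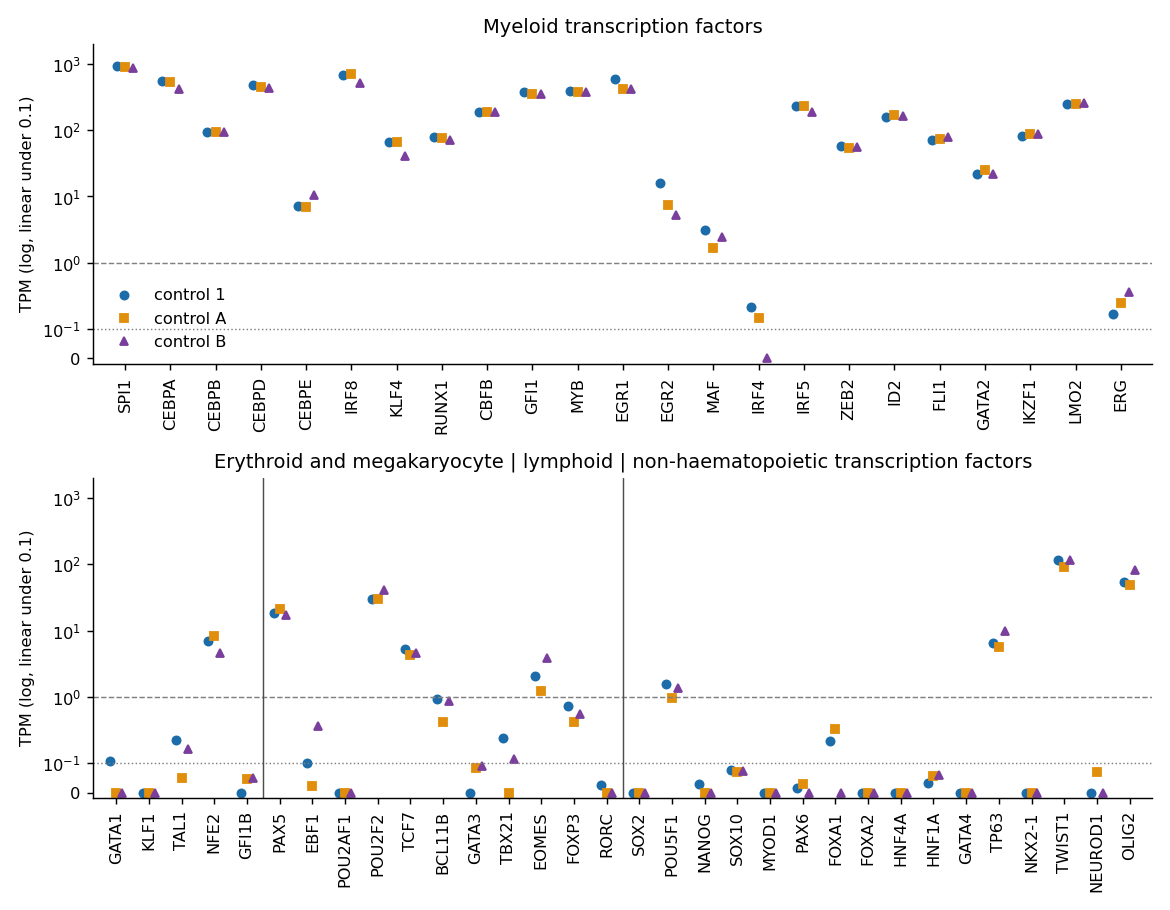
TPM of transcription factors of 4 lists, not every member drawn, in each of the 3 solvent control libraries, on an axis that is logarithmic above 0.1 TPM and linear below; the dashed line marks 1 TPM and the dotted line 0.1 TPM. In the upper panel the myeloid factors other than IRF4 and ERG lie above 1 TPM in every library, while TWIST1, OLIG2, POU2F2 and PAX5 are the highest in the lower panel.

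HOX genes encode homeodomain factors of body axis and of blood progenitors. Of 39 HOX genes in 4 clusters, 11 were on, 10 low and 18 off. In the HOXA cluster 7 of 11 genes were on. The 4 highest were the posterior genes HOXA9 (78.7 ± 2.86 TPM, SD, n = 3), HOXA10 (68.5, 65.0 and 74.3 TPM), HOXA13 (63.1, 58.5 and 57.3 TPM) and HOXA11 (59.6, 55.1 and 51.6 TPM). HOXA5 was lower, at 5.61 to 11 TPM. HOXA2 and HOXA3 were low. HOTTIP, a noncoding RNA made next to HOXA13, was on at 8.15, 8.09 and 6.26 TPM. In the HOXB cluster 4 of 10 genes were on, led by HOXB4 at 9.04, 9.45 and 9.33 TPM and HOXB13 at 4.18, 3.44 and 3.48 TPM. No HOXC or HOXD gene was on, and 8 of 9 HOXD genes had no count in any library.

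The HOX cofactors differed from each other. MEIS1, the partner named above with KMT2A fusions, stood at 0.116, 0.0655 and 0.140 TPM, close to the limit for off. PBX3 was at 143, 128 and 153 TPM, PBX2 at 107, 106 and 112 TPM and MEIS2 at 7.19, 7.82 and 7.93 TPM. KMT2A itself was at 8.56, 8.54 and 8.81 TPM and MLLT3 at 3.03, 2.86 and 2.80 TPM. All 11 genes of the KMT2A list were on, among them DOT1L, the H3K79 methyltransferase, at 100.1, 94.3 and 116 TPM and MEN1 at 49.8 to 55.5 TPM. Counts per gene cannot tell a fusion transcript from the normal gene.

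**Figure D2:**
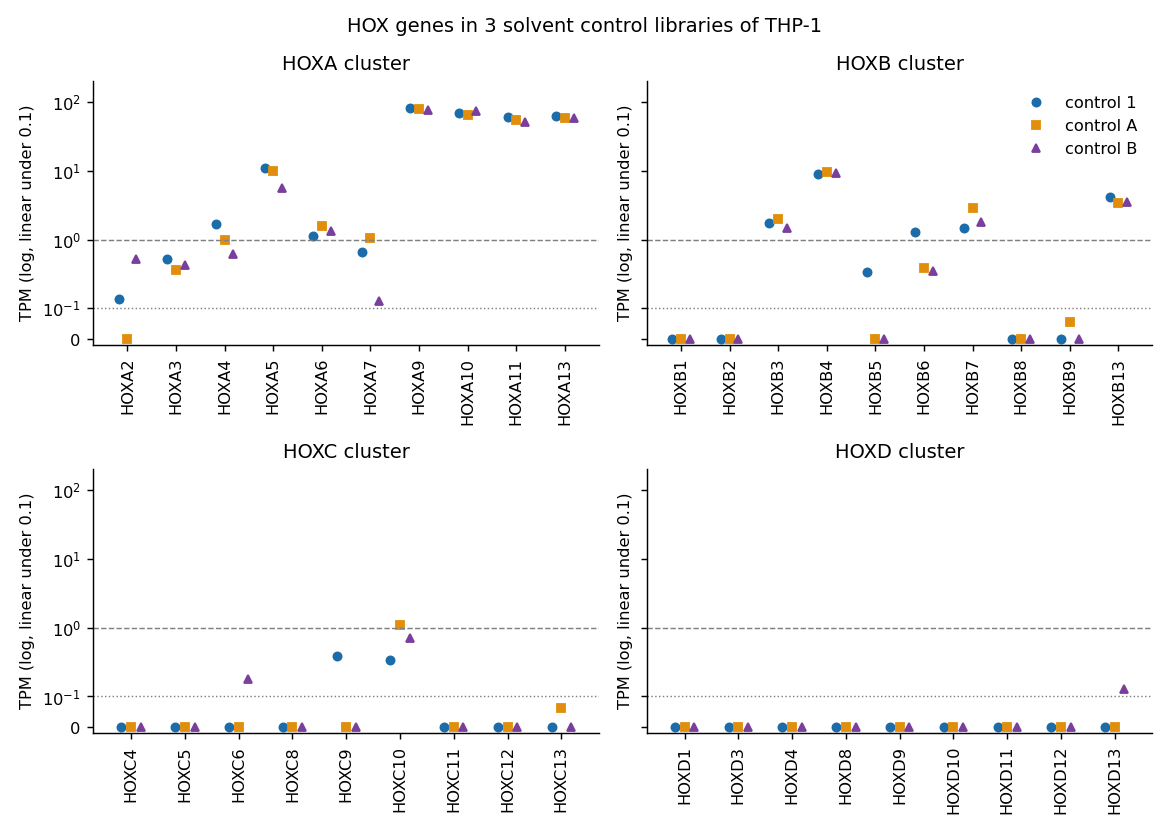
TPM of HOX genes of each cluster, not every member drawn, 1 panel per cluster and 1 marker per solvent control library, on an axis that is logarithmic above 0.1 TPM and linear below; lines mark 1 TPM (dashed) and 0.1 TPM (dotted). HOXA9, HOXA10, HOXA11 and HOXA13 lie between 51.6 and 81.7 TPM, and no HOXC or HOXD gene reaches 1 TPM in all libraries.

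Granule genes ran from no count to the 11429 TPM of SRGN, the widest range of mean levels among the 56 lists, with 16 of 26 on. The neutrophil serine proteases were high. ELANE, neutrophil elastase, was at 7717, 7344 and 4822 TPM, PRTN3, proteinase 3, at 4583, 4227 and 3580 TPM, AZU1, azurocidin, at 4152, 4367 and 2786 TPM, and CTSG, cathepsin G, at 2380.4, 2357 and 2245 TPM. For each of these the lowest value was that of control B. RNASE2, an eosinophil ribonuclease, stood at 1803, 1699.7 and 2203 TPM. MPO was near 3 TPM, and LTF and LCN2, contents of specific granules, had no count. The lysozyme gene LYZ was at 391, 508 and 192 TPM and S100A9, a calgranulin, at 704, 928 and 562 TPM. S100A8, its partner, was lower at 94.3, 115 and 43.0 TPM. The defensin genes DEFA1 and DEFA3, near-identical copies, had no count.

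Of 30 surface proteins of monocytes and macrophages, 21 were on and 1, the mannose receptor gene MRC1, was off. CD4, which human monocytes also carry, was the highest at 319, 325 and 294 TPM. CD93 was at 240 to 257 TPM, FCGR1A, the high-affinity Fc receptor, at 177, 186 and 277 TPM, TREM2 at 194 to 215 TPM and SIRPA, which binds CD47, at 129 to 146 TPM. SIGLEC1, a sialoadhesin, differed most between libraries, with 141, 188 and 50.6 TPM. The costimulatory genes split, since CD40 was at 48.0, 50.6 and 66.5 TPM while CD86 and CD80 were low, at 0.185 to 0.50 and 0.840 to 1.33 TPM. FCGR3A, FCGR2B and CLEC7A were low as well.

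Among 32 cytokine and growth factor receptors of blood cells, 22 were on. IL6R was the highest at 390, 396 and 272 TPM, with its partner IL6ST at 24.3 to 28.7 TPM. The myeloid growth factor receptors CSF3R (63.6 to 80.2 TPM), CSF2RB (41.3 to 48.3 TPM) and FLT3 (18 to 26.5 TPM) were on. The stem cell factor receptor KIT was low at 0.50 to 0.617 TPM, and IL2RA had no count. Both chains of the interferon gamma receptor were on, IFNGR1 at 110, 103 and 203 TPM and IFNGR2 at 100.4, 100.05 and 129 TPM. EPOR, the erythropoietin receptor, was on at 20.2 to 21.8 TPM although 11 of 12 erythroid markers were off.

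Of 31 receptor tyrosine kinases, 8 were on. RET, the receptor of GDNF family ligands, stood far above the others at 183, 183 and 190 TPM. AXL, a receptor for GAS6, was at 75.2, 86.1 and 39.7 TPM, with its relatives MERTK at 3.96 to 6.90 TPM and TYRO3 at 4.18 to 5.47 TPM. INSR and FGFR1 were at 31.5 to 33.0 and 21.1 to 26.5 TPM. EGFR, MET, PDGFRA and KDR were low, and ALK and NTRK3 had no count.

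Of 23 chemokine receptors, 8 were on. CCR2, the receptor that brings monocytes into tissue, was at 152, 152 and 137 TPM, CXCR4 at 151, 165 and 96.4 TPM, and CCR1 at 129, 139 and 157 TPM. CX3CR1, a mark of patrolling monocytes, was lower at 32, 32.9 and 46.6 TPM. CCR7 was low. Among 24 chemoattractant and nucleotide receptors 15 were on, led by P2RY8 (339, 334 and 274 TPM), P2RY2 (98.8, 99.6 and 74.7 TPM) and the leukotriene B4 receptor LTB4R (53.2, 59.9 and 55.1 TPM). The formyl peptide receptor FPR1 was low at 0.801 to 1.33 TPM. Of 26 integrin subunits 15 were on. The leukocyte beta chain ITGB2 was the highest at 722, 815 and 685 TPM, and ITGA5 followed at 197, 212 and 216 TPM. Its leukocyte partners ITGAX (59.0 to 69.9 TPM), ITGAM and ITGAL (38.3 to 42.0 TPM) were all on, while ITGAD was off and the platelet chains ITGB3 and ITGA2B were low.

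Of innate sensing genes, 15 of 22 Toll-like receptors and adaptors and 15 of 19 cytosolic sensors were on, beside 58.5% of all protein coding genes. TLR2, which senses bacterial lipoproteins, was the highest receptor at 75.0, 80.7 and 82.5 TPM. TLR4, the lipopolysaccharide receptor, was at 6.06, 5.30 and 4.19 TPM, and its partner LY96 (MD-2) at 2.27, 2.56 and 0 TPM. TLR3 was off. Among their partners, the kinase IRAK1 stood at 423, 436 and 398 TPM and UNC93B1, which carries Toll-like receptors to endosomes, at 371, 420 and 344 TPM. The inflammasome parts NLRP3 (134, 133 and 123 TPM), PYCARD (142 to 162 TPM), CASP1 (61.5 to 66.3 TPM) and GSDMD (75.4 to 109 TPM) were on together, as were CGAS and STING1. AIM2 was low. Subunits of the phagocyte oxidase were on, with CYBA at 572 to 733 TPM, NCF4 at 209 to 240 TPM, CYBB at 81.8 to 106 TPM and NCF1 at 79.6 to 133 TPM, and NCF1 has near-identical pseudogene copies. The catalytic relatives NOX3, NOX4 and DUOX2 had no count.

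MHC class I genes were high, with B2M at 1251, 1339.8 and 1118 TPM and HLA-B at 1037, 1030.2 and 872 TPM. HLA-G had no count. MHC class II genes were on in 6 of 13 cases. HLA-DRB1 was at 265, 266 and 201 TPM and the invariant chain CD74 at 213, 209 and 154 TPM, while HLA-DPA1 and HLA-DPB1 were low. CIITA, the class II transactivator, was low at 0.895, 1.28 and 0.767 TPM. HLA genes resemble each other closely, so reads may have been split between them.

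Markers of 13 other cell types served as a check for foreign RNA. Of 109 such genes, 13 were on, 39 low and 57 off. No marker of T cells (12), erythroid cells (12), dendritic cells (10), mast cells and basophils (6), fibroblasts (7) or epithelial cells (8) was on. The summed level of the T cell list was 1.67, 1.08 and 1.83 TPM and that of the erythroid list 0.155, 0.0839 and 0.0748 TPM. CD3E, CD2, LCK, HBB and EPCAM had no count. The markers that were on included genes that myeloid cells are also known to carry, among them PECAM1 (193, 233 and 188 TPM), CD38 (133, 129 and 113 TPM) and SERPINA1 (3.04 to 5.00 TPM). NKG7, a cytotoxic granule gene, was at 20.9, 34.9 and 44.4 TPM, while PRF1, KLRD1 and NCR1 had no count. The B cell genes MS4A1 and BLK had none either. The stem cell gene CD34 was off at 0.0689, 0.0933 and 0 TPM.

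**Figure D3:**
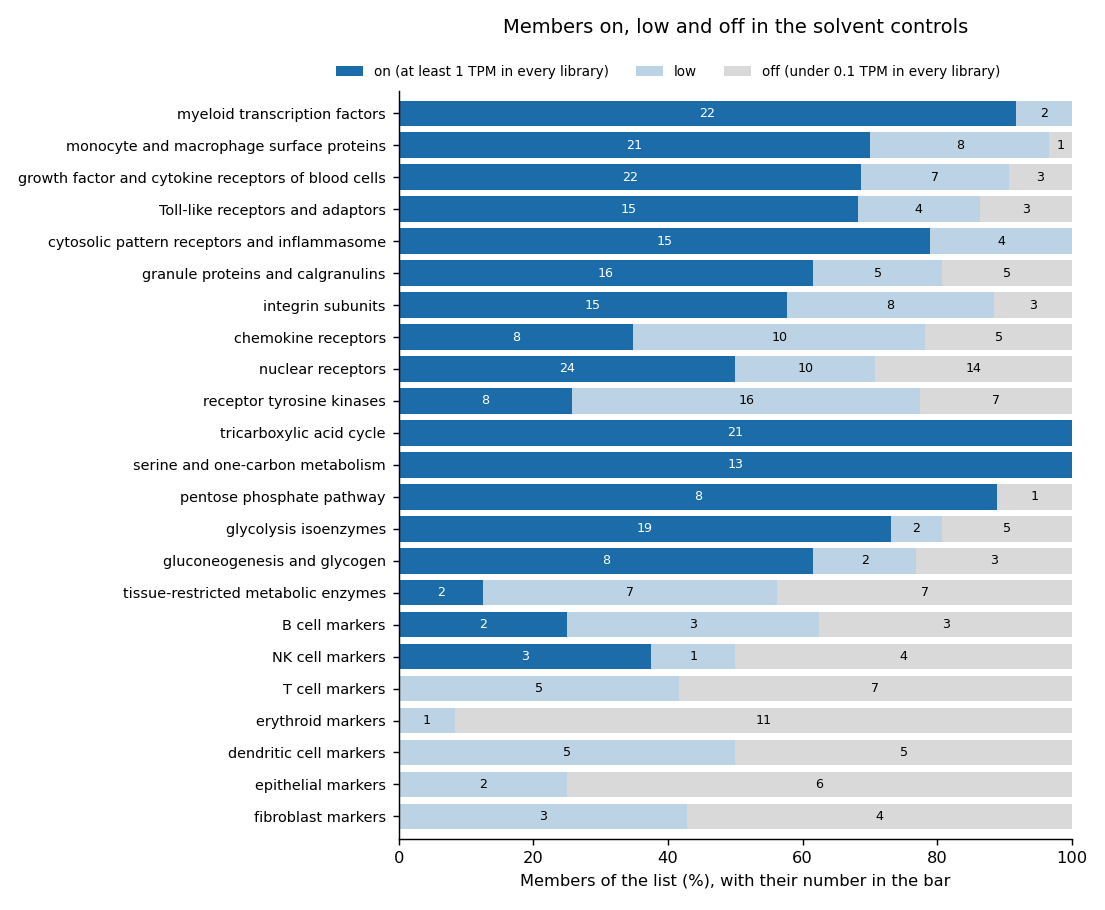
Share of the members of 23 gene lists that were on (at least 1 TPM in every solvent control library), low or off (under 0.1 TPM in every library), with the number of genes written in each bar. Myeloid transcription factors reach 22 of 24 on and the tricarboxylic acid cycle 21 of 21, while no marker of T cells, erythroid cells, dendritic cells, epithelium or fibroblasts is on.

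Nuclear receptors, the transcription factors of steroids, retinoids and lipids, were on in 24 of 48 cases. ESRRA, an orphan receptor of mitochondrial genes, was the highest at 153, 151 and 111 TPM, and NR2F6 stood at 95.1 to 106 TPM. The common partners RXRA (77.3 to 89.2 TPM) and RXRB (81.9 to 93.5 TPM) were on, and RXRG was off. RARA (45.2 to 53.3 TPM), VDR (22.4 to 31.8 TPM), NR3C1, the glucocorticoid receptor (39.9 to 47.3 TPM), and the oxysterol receptors NR1H2 (36.3 to 40.3 TPM) and NR1H3 (11 to 13.2 TPM) were on. Of the PPAR genes, PPARD was at 46.8 to 48.7 TPM and PPARG at 2.41 to 3.03 TPM. ESR1 was off and PGR low. HNF4G, a relative of the liver factor HNF4A, was on at 20.2 to 23.5 TPM, while HNF4A itself had no count.

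Central carbon metabolism was on, apart from isoenzymes of single tissues. All 21 genes of the tricarboxylic acid cycle and all 13 of serine and one-carbon metabolism were on, the former led by IDH2 at 501, 476 and 477 TPM and the latter with SHMT2 at 151, 149.9 and 171 TPM. In glycolysis 19 of 26 isoenzymes were on. Among hexokinases HK1 was at 68.7 to 80.8 TPM, HK2 at 29, 29 and 50.0 TPM and HK3 at 15.6 to 23.1 TPM. GAPDH stood at 1622, 1644 and 2141 TPM, ENO1 at 1543, 1601 and 1769 TPM and PGAM1 at 1051, 1062 and 1257 TPM. The tissue forms PKLR, PGK2, PGAM2 and LDHC were off, and the LDHA level (462, 451 and 706 TPM) exceeded that of LDHB (30.5, 33.0 and 39.5 TPM). ALDOA was listed at only 5.23 to 6.70 TPM, with 42.8% of its exon bases shared with another gene on the same strand.

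The highest sugar transporters were SLC2A1, the common glucose carrier (273, 268 and 424 TPM), SLC2A6 (178 to 206 TPM) and the fructose transporter SLC2A5 (94.7 to 103 TPM). SLC2A2 and SLC2A4, the liver and muscle forms, had no count. The lactate exporter SLC16A3 was at 168 to 189 TPM. In the pentose phosphate pathway 8 of 9 genes were on, with PGD at 755, 758 and 566 TPM and TALDO1 at 547, 579.9 and 496 TPM. TKTL1, a transketolase-like gene, was on at 53.2, 47.6 and 38.9 TPM. Gluconeogenic isoenzymes differed. PCK2, the mitochondrial form, was at 61.0 to 75.8 TPM, PCK1, the cytosolic form, had no count, and FBP1 was at 28.5 to 44.3 TPM while FBP2 was low.

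Of 26 genes of amino acid metabolism 16 were on, led by ODC1, the first enzyme of polyamine synthesis, at 462, 459 and 533 TPM. ASS1, the arginine-making synthase, was at 96.9 to 107 TPM, while ARG1, NOS2 and IDO1 were low. ASNS was listed at 0.50 to 0.732 TPM, and 49.3% of its exon bases are shared with another gene. Of 13 genes of fatty acid synthesis and of the carnitine palmitoyltransferases, which bring fatty acids to oxidation, 10 were on. FASN stood at 362, 338 and 251 TPM, ACLY at 364, 351 and 307 TPM and SCD at 255, 232 and 110 TPM, and ELOVL6 was off. In eicosanoid synthesis 10 of 17 genes were on. ALOX5AP (154 to 167 TPM), LTC4S (44.8 to 65.5 TPM) and PTGS1 (40.5 to 48.4 TPM) were on, PTGS2 was at 3.76 to 4.11 TPM, and PTGES, HPGDS and PTGIS had no count. Of 16 enzymes of single tissues 2 were on, the muscle creatine kinase CKM (16.6, 17.0 and 15.8 TPM) and the aromatase CYP19A1 (5.14, 5.24 and 13.7 TPM).

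Genes of the cell cycle and of apoptosis were on almost without exception. Of 22 cell cycle genes 21 were on, with MCM3, a replication helicase subunit, at 762, 739 and 603 TPM and MKI67 at 196, 211 and 209 TPM. Among the D cyclins, CCND3 was at 236, 234 and 271 TPM, CCND1 at 6.50 to 9.65 TPM and CCND2 low at 0.0767 to 0.378 TPM. All 13 apoptosis regulators were on, a list that mixes genes promoting cell death, such as BAX and BAK1, with genes blocking it. MCL1 was at 627, 579 and 679 TPM and BCL2 at 25.4, 24.2 and 32.2 TPM. Of 17 leukaemia and tumour suppressor genes 16 were on, with MYC at 107, 106 and 92.0 TPM, MYCL at 77.2, 77.8 and 71.9 TPM and MYCN without a count. CDKN1A, a cell cycle inhibitor, was at 279, 290 and 488 TPM. WT1, a gene often active in acute leukaemia, was at 24.1, 18.5 and 27.6 TPM.

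A stretch of chromosome 9 had no counts at all. From IFNA5 to CDKN2B (chr9:21304326-22009305) 12 protein coding genes in a row were at 0 in every library. Most are type I interferon genes, which are silent in resting cells, but the run also holds KLHL9, a ubiquitin ligase adaptor, MTAP, a salvage enzyme, and CDKN2A and CDKN2B, inhibitors of the cell cycle. A count of 0 allows up to 3 counts, which is 0.0328 TPM for MTAP and 0.123 TPM for CDKN2A in the library with the highest limit. The nearest genes that were on were IFNB1 at 3.41, 1.03 and 1.82 TPM and ELAVL2 at 4.42, 3.74 and 4.20 TPM, with 21 genes between them. FOCAD, farther out, was at 23.9, 25.7 and 25.9 TPM. No cause was tested.

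A stretch of chromosome 1 was at the other end. The median TPM was taken over each run of 21 protein coding genes in order along a chromosome. The highest of 19335 such medians lay at chr1:39757182-41012565, centred on COL9A2, at 246 TPM, against a median of 6.14 TPM over all windows and a 99th percentile of 54.8 TPM. It was 239, 241 and 240 TPM in the 3 libraries, and the 20 genes on either side had medians of 18 to 20.2 TPM and 2.85 to 3.63 TPM. Of the 21 genes 20 were on and 6 reached 1000 TPM, while 85 of all 19894 protein coding genes did. These 6 were CAP1 (9216, 9171 and 10686 TPM), PPT1 (5476, 5335 and 4893 TPM), CITED4, a transcriptional cofactor (3124, 2954 and 2650 TPM), SMAP2, an Arf GTPase activator (2324, 2224 and 2472 TPM), COL9A2, a collagen chain of cartilage (1478, 1518 and 1094 TPM), and ZMPSTE24, the prelamin protease (1107, 1042 and 1461 TPM). Genes of unlike roles thus shared the stretch, among them MYCL, the transcription factor subunit NFYC (554 to 576 TPM) and the nucleotide enzyme CTPS1 (240 to 251 TPM). TMCO2 was the exception at 1.13, 1.02 and 0 TPM. The next highest stretch, on chromosome 19 with a median of 170 TPM, holds PRTN3, AZU1 and ELANE. The chromosome 1 stretch also ranked first with 11 or 31 genes per window and on the CPM scale, settings chosen after seeing the data, but its median depended on them. It was 783 TPM with 11 genes and 195 TPM with 31, and 384 CPM with 21 genes.

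**Figure D4:**
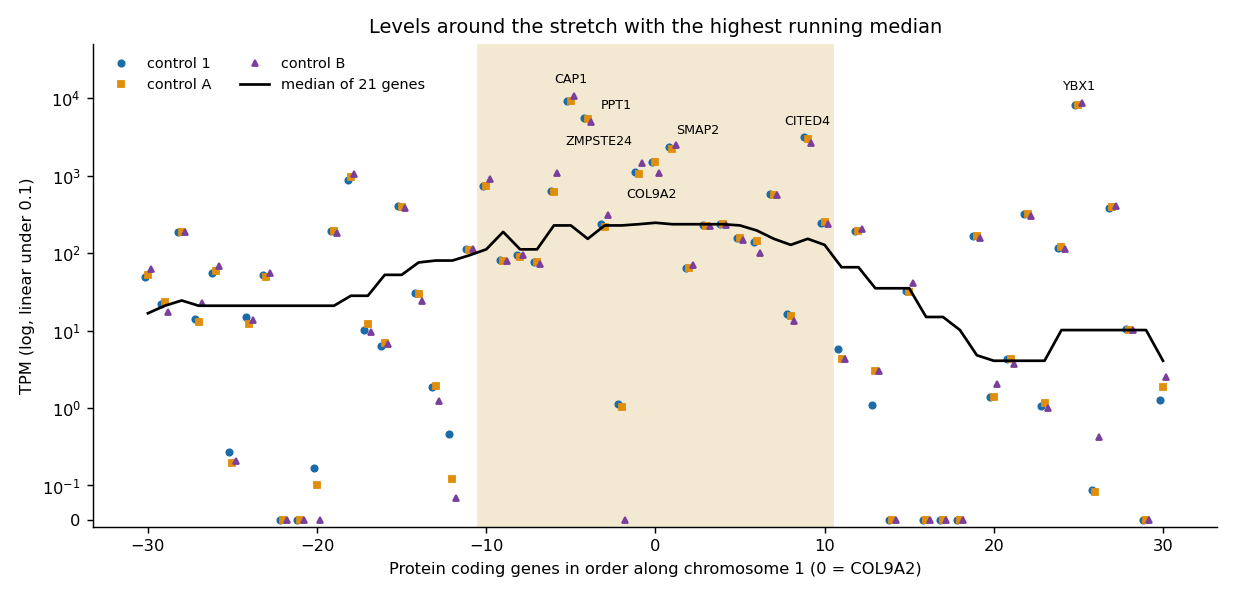
TPM of protein coding genes in their order along chromosome 1 around COL9A2, with 1 marker per solvent control library and the running median of 21 genes as a line, on an axis that is logarithmic above 0.1 TPM and linear below. The shaded 21 genes have a median of 246 TPM, the 6 of them with a mean of at least 1000 TPM are named, and YBX1 is the single gene at that level among the 40 flanking genes.

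Among noncoding genes, 544 of 7507 lincRNAs (7.25%) and 749 of 5545 antisense genes (13.5%) were on. Of the long noncoding genes, LINC01388 was the highest at 527, 498 and 455 TPM, and NORAD, which binds Pumilio proteins, stood at 213, 206 and 189 TPM. MALAT1, a nuclear speckle RNA, was at 184, 171 and 147 TPM. HOTAIR had no count. Antisense levels are uncertain because the use of strand in counting is not given. All 13 mitochondrially encoded genes were listed at 0, although every cell uses them. Nuclear copies of such genes were high, with MTND2P28 at 4063, 3816 and 3878 TPM, MTATP6P1 at 3982, 3603 and 3353 TPM and MTCO1P12 at 85.0, 92.0 and 92.5 TPM. These copies are near-identical to mitochondrial sequence, so their counts cannot be assigned to the nuclear genes with certainty.

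Shared exons limited what a low value means. Of 15659 protein coding genes with under 10% of their exon bases shared with any gene of the table, 59.5% were on. Of 890 with at least 50% shared on the same strand, 9.10% were on. Of 186 with at least 50% shared on any strand but under 10% on the same strand, 45.2% were on. Whether sharing lowered the counts was not tested. List members with exons shared on the same strand include CD68, TLR9 (99.7% shared and no count), CCR6, CYP51A1 (68.2% shared on the same strand and 1.84 to 3.88 TPM) and TICAM2. An off call for these genes does not show that they are silent. Depth set a second limit. Of 184 list members called off, 125 have so few exon bases that 3 counts would reach 0.1 TPM. For them an off call means that fewer reads were seen than the depth can resolve.

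The spread between the 3 libraries was small for most genes and was carried largely by control B. Over 15242 genes with enough counts, the median SD of log2 CPM (counts per 1000000 counts, scaled by TMM) was 0.154. The common biological coefficient of variation, the relative spread beyond counting error, was 0.135. It was 0.0680 for control 1 with control A, 0.15 for control 1 with control B and 0.163 for control A with control B. All pairs differed by more than sampling noise, with a chi-square per degree of freedom of 5.12, 20.3 and 25 in that order, so none is a library deposited again. Without control B the median SD was 0.0860. A range of at least 2-fold between libraries was found for 1056 genes (6.93%), and for 155 (1.44%) of the 10794 genes that averaged 5 CPM or more. In 133 of those 155 the value of control B lay farthest out, higher in 67 and lower in 66. Without control B, 331 genes had such a range.

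Among the 10 genes with the largest range, ABCA1, the cholesterol exporter, was at 26.8, 33.5 and 4.92 CPM, and IL1B, the pyrogenic cytokine, at 16, 17.4 and 89.6 CPM. Control B was thus the lowest for the first and the highest for the second. CCL4, a chemokine, was at 6.62, 7.60 and 26.7 CPM and CYTIP, a regulator of leukocyte adhesion, at 3.39, 1.80 and 11.1 CPM. DUSP8, a MAP kinase phosphatase, stood at 3.05, 3.90 and 14.9 CPM and PNCK, a calmodulin-dependent kinase, at 3.43, 4.08 and 12.8 CPM. RUFY4 (6.17, 8.64 and 2.24 CPM) was lowest in control B. Other genes set control 1 or control A apart. EGR3, an immediate-early factor, was at 51.7, 20.5 and 12.3 CPM, and EGR2 at 14, 6.53 and 4.70 CPM. RN7SL5P, a signal recognition particle RNA copy, was at 9.86, 1.52 and 6.68 CPM. At the other end, BIRC5, an inhibitor of apoptosis, was at 153 ± 0.292 CPM (SD, n = 3), and UBA1, RPS9 and the noncoding TUG1 and GAS5 were also among the 10 with the smallest SD.

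Members of several lists differed together between libraries. The lists were chosen with earlier results of these data known, so the counts below are a description only. Over all 15242 genes control B was the highest library in 39.0% and the lowest in 39.9%, and control A the highest in 32.1%. All 20 interferon response genes were on, all 20 were highest in control A and all 20 lowest in control B, with a median range of 0.86 on the log2 scale against 0.29 over all genes. ISG15, a ubiquitin-like modifier, was at 150, 218 and 106 CPM, IFI6 at 268, 362 and 142 CPM and IFI27 at 147, 245 and 77.2 CPM. SIGLEC1, which interferon is known to induce, followed the same order at 274, 368 and 100.2 CPM. It was named for its spread between these same libraries. All 6 MHC class I genes with enough counts were lowest in control B.

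Genes of cholesterol synthesis and uptake were lowest in control B in 20 of 21 cases, with a median difference of 0.47 below the mean of the other libraries on the log2 scale. DHCR7, which makes cholesterol from its last precursor, was at 32.6, 30.9 and 15.0 CPM, LSS, which closes the sterol rings, at 72.3, 69.2 and 35.0 CPM, and INSIG1, a sterol sensor partner, at 152, 144 and 81.4 CPM. EBP was the exception at 16.7, 22.8 and 17.5 CPM. Of 11 genes of fatty acid synthesis and the carnitine palmitoyltransferases with enough counts, 10 were lowest in control B, with SCD at 321, 293 and 140 CPM. The mean log2 CPM of the cholesterol list was 5.80 in control 1, 5.80 in control A and 5.26 in control B.

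Other lists were highest in control B. Among 12 inflammatory cytokines with enough counts 9 were, with CCL5 at 115, 118 and 263 CPM and TNF at 140, 89.8 and 240 CPM. The other 3 were lowest there, with CXCL2 at 2.44, 1.69 and 1.23 CPM, IL18 at 9.90, 8.77 and 7.5 CPM and IL12A at 0.609, 0.449 and 0.410 CPM. IL6 and IL10 had no count in any library. In glycolysis 14 of 19 genes were highest in control B, with LDHA at 668, 655 and 1039 CPM, and the glucose transporter SLC2A1 was at 432, 427 and 684 CPM. Lists with little spread were the cell cycle (median range 0.15), the tricarboxylic acid cycle (0.18), serine and one-carbon metabolism (0.12) and the KMT2A list (0.12), each on the log2 scale. Housekeeping genes had a median range of 0.17. Over all genes the spread fell with level, from a median SD of 0.369 under 1 CPM to 0.109 at 20 to 100 CPM and 0.0910 at 100 CPM or more. The lists were not set against genes of the same level, so a small range may reflect level alone. HOXA genes stood at a median range of 0.21. Over all genes, the median log2 difference of a library from the others lay within -0.019 to 0.014 in each of 4 classes of gene length. What set control B apart was not tested.

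**Figure D5:**
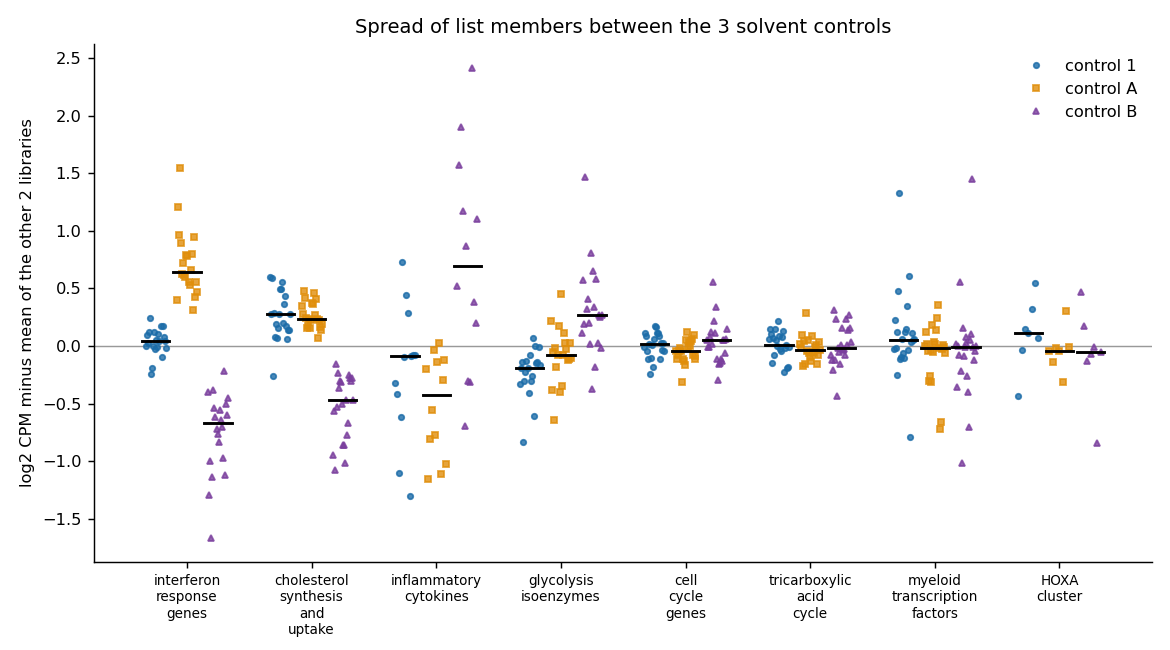
Difference of each library from the mean of the other 2 in log2 CPM for the members of 8 gene lists with enough counts; each marker is 1 gene and each black bar the median of a list in 1 library. Interferon response and cholesterol genes lie below 0 in control B, inflammatory cytokines and glycolysis genes mostly above 0, and cell cycle and tricarboxylic acid cycle genes near 0 in all libraries.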

How the data were processed

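RNA-seq counts of the 3 solvent control libraries of THP-1 cells were used, and the other 6 libraries of the deposited table were not read. The authors deposited whole-number counts per gene with exon positions and a gene length in bases, per the file headers. Every per-sample column matched a label, except that 2 control columns share 1 heading. The submitters' processing notes name Bowtie 0.12.2 and mm8, a mouse build. The table holds human Ensembl genes, and the 35966 IDs whose version is in GENCODE 29 all have the same position there, on GRCh38, so positions are given on GRCh38. How reads were counted, with or without strand and with or without multiply aligned reads, is not given in the sources used. Of 67928 rows, 1 (ANK2) had no values and was left out, and 6395 genes lie on alternate scaffolds.

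TPM were computed from counts and lengths without a pseudocount, and CPM in the account of the spread were scaled by TMM in edgeR 4.0.16 (R 4.3.3), with log2 values at a prior count of 2. Genes for the spread passed filterByExpr of edgeR, and the coefficient of variation came from an intercept-only fit, tested on simulated data. DESeq2 1.42.0 size factors were an alternative. Exon overlap was found with bedtools 2.31.1, and chi-square values used genes with at least 10 counts. Gene types are those of GENCODE 29, and symbols came from a table of gene names for 61414 genes. Promoters are from RefSeq, 1 entry per symbol. The promoters of ELANE, SRGN, MPO and SPI1 are not shown. Limits from 3 counts cover counting error only.

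With 1 group of 3 libraries no test was made and no p-value is given. The members and the 56 lists (850 different genes) were chosen with earlier results of these data known. Named genes were the 20 highest by mean TPM, up to 6 of the highest on and 4 off members of each list, the defining markers, the 10 with the largest range (mean of at least 5 CPM), the 10 with the smallest SD (at least 50 CPM), the 5 highest and lowest per library and the most variable member of each list. Other genes, among them those along chromosomes 1 and 9, the noncoding genes and further members of lists, were named after their values were seen. Copies of genes in families with near-identical members, such as HLA, FCGR1A, NCF1, SDHA, RPS2 and ACTG1, are uncertain. Some genes of the lists and of the naming rule are counted but not reported here by name.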

Additional observations from a re-analysis of the deposited data

How the results depend on the processing

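The counts of genes on and off, over all genes and over protein coding genes, stayed within 1.5 times of the reported value under every setting tried: 0.5 or 5 TPM, CPM, means over libraries, thinning to the smallest library, primary chromosomes only, columns A and B summed, and each library left out. The 0.5 and 5 TPM settings changed the cutoff for on alone, so the count of genes off could not move under them. Another TPM cutoff for off was not tried. Of the 850 list members 493 were on, with 530 at 0.5 TPM, 424 at 5 TPM and 498 to 502 with a library left out. The count moved by over 1.5 times in 10 of 56 lists at 5 TPM, in 2 at 0.5 TPM and in 0 with a library left out. The spread depended more on the settings. With no filter on low counts the median SD of log2 CPM was 0.345 and 9919 genes had a 2-fold range, while 155 had one at a mean of at least 5 CPM. Leaving out each library in turn gave a median SD from 0.0860 to 0.151, 331 to 630 genes with a 2-fold range and a common coefficient of variation from 0.0680 to 0.163, each lowest without control B. DESeq2 size factors, totals alone and a prior count of 0.5 left the 3 spread measures within 1.5 times. With TMM factors the mean TPM of the 25 named genes checked moved by less than 1 SD. Those factors were 1.007, 1.004 and 0.989 for control 1, control A and control B, so they could move a mean only slightly. No paired analysis was possible because only 1 group was used. At these depths, 3 counts equal 0.104 to 0.115 CPM, so genes under that level cannot be told from silent ones.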
